A study of Mus musculus with 8 samples.

Results

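The genes described here are 9 receptor tyrosine kinases and 1 ligand: the TAM receptors Axl, Tyro3 and Mertk with their ligand Gas6, the MET family receptors Met and Mst1r, the insulin-like growth factor receptor Igf1r, and the fibroblast growth factor receptors Fgfr1, Fgfr2 and Fgfr3. They are 10 of the 30139 gene names on the array and are measured by 16 of its 39429 probes. A probe was taken where its gene name, in current or older form, was one of these symbols. All probes of a gene are given, and the brightest over the 8 arrays stands for the gene. The genes were chosen by measured values as well as by name: the differences after both microRNAs were known, in particular the fall of Axl after miR-193b. For the 10 genes, differences from the control arrays are therefore a description, given without p-values.

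Total RNA came from mSCC-20 cells, a squamous carcinoma line of FVB/N mouse skin, after transfection with miR-193b-3p, miR-365a-3p or a negative control microRNA (NC). The study asked what raising either microRNA does to the transcriptome of these cells. Cy3-labelled RNA was hybridised to 8 one-colour Agilent arrays in 4 groups of 2. The labels give an amount of 0.2 µg to 2 NC arrays and both miR-193b arrays (the 0.2 set), and of 0.6 µg to 2 other NC arrays and both miR-365a arrays (the 0.6 set). An RNA integrity number of 10 is given for every sample. The labels do not say what the amount refers to, how long after transfection RNA was taken, or whether the 2 arrays of a group came from separate cultures, so errors and p-values cover no more than the variation from array to array, which may be technical. The cells are 1 line. In RNA of whole cultures, fewer cells carrying a transcript and less transcript per cell cannot be told apart.

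Receptor tyrosine kinases are membrane proteins, most of which pair up when a ligand binds outside the cell. The receptors of a pair then phosphorylate each other inside it, which recruits adaptors of the RAS and PI3 kinase pathways. AXL, TYRO3 and MERTK respond to the vitamin K-dependent protein GAS6 and are known for cell survival, for clearing dead cells and, in carcinomas, for invasion and drug resistance. MET and its relative RON (Mst1r) are receptors of the scatter factors HGF and MSP and drive movement of epithelial cells, IGF1R carries growth and survival signals, and the FGF receptors link keratinocytes to the surrounding stroma.

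The mature sequences of the microRNAs, from RefSeq (GRCm38.p6), are shown because their seeds, bases 2 to 8 and here in capitals, set which transcripts each can pair with. Mir193b lies on the plus strand of chromosome 16, with the mature form at chr16:13449570-13449591. RefSeq lists the mature miR-365 at chr16:13453895-13453916, also on the plus strand, and again at chr11:79726467-79726488.
mmu-miR-193b-3p: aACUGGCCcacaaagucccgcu
mmu-miR-365-3p: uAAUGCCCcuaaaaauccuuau
The seeds differ. The DNA letters that pair with the miR-193b seed, GGCCAGT, were in 0 of the 16 probes of these genes on either strand, and in 116 of all 39429 probes (0.294%) on the probe strand. The letters that pair with the miR-365 seed, GGGCATT, were likewise in 0 of the 16, and in 123 of all probes (0.312%). Each probe is a window of 60 bases, so this says only that the letters were not in those windows.

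On each array 43020 gene spots were read. Between 51.4 and 54.6% of them were well above background on arrays of the 0.2 set, and between 58.9 and 62.1% on those of the 0.6 set, and 0 gene spots were saturated. The local background, as a median over spots, ran from 55 to 60.5 intensity units in the former and from 26 to 30 in the latter. Replicate arrays correlated at r = 0.9908 to 0.9951 across probes. NC replicate 1 and miR-193b replicate 1 of the 0.2 set shared slide 1, the other 2 arrays of that set lay on slides 2 and 3, and the 0.6 set lay on slide 4. All 12 keratinocyte markers examined were well above background on all 8 arrays, as were 1 of 6 fibroblast, 2 of 6 endothelial, 3 of 6 leukocyte and 2 of 5 melanocyte markers. The fibroblast genes Col3a1, Dcn and Lum, the endothelial genes Cdh5, Tek and Emcn and the melanocyte gene Dct were well above background on 0 arrays.

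Levels below are normalised log2 signals: the log2 of a probe's processed signal minus the 75th percentile of gene spots on its array, so that 0 is the level of that percentile. Probes differ in how brightly they bind, so a level is comparable between arrays for 1 probe and not between genes. A difference is given on the log2 scale with the standard error (SE) of a limma fit over all 8 arrays, in which each microRNA is set against the 2 NC arrays of its own set. A gene was called where the p of that fit was under 0.05 after Benjamini-Hochberg adjustment over all 17849 genes tested. Of the 10 genes, 9 were tested, and the main probe of each of those 9 was well above background on all 8 arrays.

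After miR-193b, 1 of the 9 tested genes was called, Axl, and it fell. The called share of all genes was 2.9% in either direction and 1.17% downward. After miR-365a, 3 of 9 were called, Igf1r, Tyro3 and Mst1r, and all 3 fell, beside 15.9% of all genes in either direction, 7.84% upward and 8.05% downward. By limma 0 of the 9 were called higher after either microRNA, while 4 of the 9 had an unadjusted p under 0.05 in each comparison, in either direction, beside 21.4% of all genes after miR-193b and 31.3% after miR-365a. The median difference of the 9 was 0.02 after miR-193b and -0.28 after miR-365a, against 0.05 and 0.02 over all genes tested. Because the genes were chosen with these comparisons known, nothing is read from those shares. When dim probes were not filtered out, so that 30139 genes entered the adjustment, the 3 genes called after miR-365a no longer passed, and Axl after miR-193b did.

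**Figure D1:**
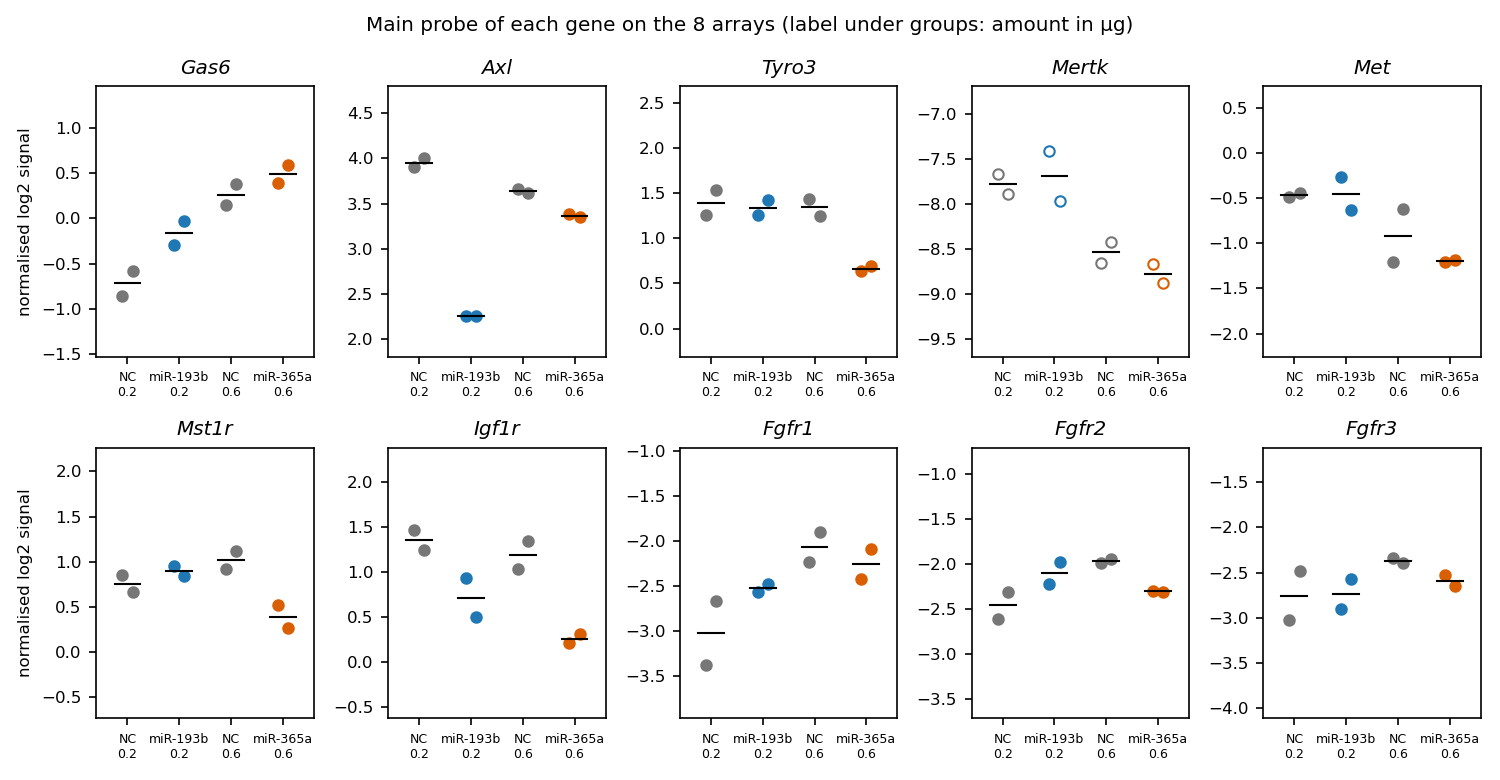
Normalised log2 signal of the main probe of each of the 10 genes on each of the 8 arrays (y axis, log2 units, each panel spanning the same range). Points are single arrays, bars the mean of 2, and open points are not well above background. Axl sits at 2.25 and 2.26 on the miR-193b arrays and at 3.35 or above on the other 6, and Mertk is open throughout.

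The ligand Gas6 bridges TAM receptors to phosphatidylserine on dying cells. Its signal was -0.86 and -0.58 on the NC arrays of the 0.2 set, -0.29 and -0.03 after miR-193b, 0.15 and 0.38 on the NC arrays of the 0.6 set, and 0.39 and 0.59 after miR-365a. The microRNA arrays lay above their NC arrays in both sets without overlap, although in the 0.6 set the nearest pair was only 0.02 apart. The differences were 0.56 ± 0.17 (SE, n = 2 per group) after miR-193b and 0.23 ± 0.17 after miR-365a, and neither was called. The difference after miR-193b was 0.57 on slide 1 and 0.54 across slides 2 and 3. Its probe lies at chr8:13465503-13465444 on mm9, the build of the files. A probe on the minus strand is written with its start above its end.

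Gas6 also differed between the NC arrays of the sets. Its signal was higher by 0.98 ± 0.17 in the 0.6 set, 1.97-fold (limma with Benjamini-Hochberg adjustment, adjusted p = 0.0176), and both NC arrays of the 0.6 set lay above both of the 0.2 set. The call was lost without NC replicate 1 of the 0.2 set (0.84, limma adjusted p = 0.0633) and without NC replicate 2 of the 0.6 set (0.87, limma adjusted p = 0.105), and also with no filter on dim probes (0.98, limma adjusted p = 0.0532). This comparison was not itself used in choosing the genes. Its arrays are, however, the NC arrays of the microRNA comparisons known at that time, so its p-values are not independent of that choice. Between the NC arrays the amount, the slide and the scan cannot be told apart. In this comparison 15.6% of all genes were called, 11.6% higher and 4.04% lower in the 0.6 set. Those are 2066 genes against 721. With arrays centred on the median in place of the 75th percentile, which moved the median difference of all genes from 0.12 to -0.02, the split was 1465 against 1022, and Gas6 was called in both.

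Axl, the TAM receptor most often tied to invasion in carcinomas, had the largest difference of the 9 tested genes in either microRNA comparison. Its signal was 3.90 and 4.00 on the NC arrays of the 0.2 set and 2.25 and 2.26 after miR-193b. It was 3.66 and 3.62 on the NC arrays of the 0.6 set and 3.38 and 3.35 after miR-365a. In both sets the microRNA arrays lay wholly below their NC arrays, by at least 1.64 in every pair after miR-193b and by 0.24 to 0.31 after miR-365a. Axl fell by 1.69 ± 0.10 after miR-193b (SE, n = 2 per group), which is 3.23-fold, and the fall was 1.65 on slide 1 and 1.73 across slides 2 and 3.

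After miR-365a the Axl difference was -0.28 ± 0.10 and was not called. The effect of miR-365a minus that of miR-193b was 1.41 ± 0.15 for Axl. It passed the threshold of the fit, as did 3.54% of all genes in either direction, 1.13% upward and 2.41% downward, but the fall after miR-193b that enters it was known when the genes were chosen, so it is a description too. Each microRNA was measured in only 1 set, so microRNA and set cannot be told apart in this difference. Its call was lost without miR-193b replicate 1, without any 1 of the 4 arrays of the 0.6 set, without the filter on dim probes and with the slide as a fixed block, at values of 1.37 to 1.53 over the alternatives other than leaving out an array. The Axl fall after miR-193b had values from -1.74 to -1.65 with each of the 8 arrays left out in turn, a description as well. Fitted on the 4 arrays of the 0.2 set alone the same difference of -1.69 was not called. By limma 0 genes were called in that fit, and 3134 of the 17849 had an unadjusted p under 0.05. Axl has 1 probe on the array, at chr7:26542600-26542541, starting at base 4002 of its transcript.

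Summed levels of several marker lists also differed between groups. The summed signal of the keratinocyte markers, on a linear scale where 1 is the 75th percentile of an array, was 701 to 715 on the NC arrays and 875 to 894 after miR-193b, with 0 of the 12 called. In the 0.6 set it was 748 to 825 on the NC arrays and 762 to 897 after miR-365a, with 1 marker called higher and 1 lower (Krt8 and Itga6). The melanocyte list summed to 1.46 to 1.73 on the NC arrays of the 0.2 set and 1.95 to 2.22 after miR-193b, with 0 called, and to 1.70 to 1.94 on the NC arrays of the 0.6 set and 1.30 to 1.34 after miR-365a, with Mitf called lower. The fibroblast list summed to 0.103 to 0.118 on the NC arrays of the 0.2 set and 0.125 to 0.129 after miR-193b, with 0 called. Only 1 of its 6 genes, Pdgfra, was well above background on all 8 arrays, and it made up most of those sums. The log2 signal of Pdgfra was -3.81 and -3.91 on these NC arrays and -3.44 and -3.60 after miR-193b. In the 0.6 set the fibroblast sums overlapped, at 0.0769 to 0.109 on the NC arrays and 0.0689 to 0.0965 after miR-365a. The endothelial sums of the 0.2 set overlapped, at 1.20 to 1.65 on the NC arrays and 1.34 to 1.57 after miR-193b, although Esam was called higher after miR-193b. The leukocyte sums of the 0.2 set overlapped too, at 3.39 to 4.02 on the NC arrays and 3.31 to 3.75 after miR-193b. Both lists summed higher in the 0.6 set, where NC and miR-365a arrays overlapped. There the endothelial sums were 3.46 to 4.39 on the NC arrays and 3.57 to 4.88 after miR-365a. The leukocyte sums were 5.66 to 7.18 and 5.83 to 7.30. The part of these markers in the receptor differences was not tested.

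Tyro3, the TAM receptor best known from brain, was at 1.26 and 1.53 on the NC arrays of the 0.2 set and at 1.26 and 1.42 after miR-193b. On the NC arrays of the 0.6 set it was at 1.44 and 1.25, and after miR-365a at 0.64 and 0.69. The groups overlapped in the 0.2 set and did not in the 0.6 set, where both miR-365a arrays were lower. Tyro3 fell by 0.68 ± 0.14 after miR-365a, 1.60-fold, while the difference after miR-193b was -0.05 ± 0.14. The effects differed by -0.63 ± 0.20, which was not called. The fall after miR-365a was no longer called without any 1 of the 4 arrays of the 0.6 set, with values from -0.78 to -0.59.

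Tyro3 has another probe, upstream in the transcript, whose sequence is shown because the probes gave different pictures in the 0.2 set. The main probe lies at chr2:119643759-119643818, from base 3907 of the transcript, and the upstream one at chr2:119642510-119642569, from base 2658.
Tyro3 upstream probe: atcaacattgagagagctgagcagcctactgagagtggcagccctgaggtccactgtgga
In the 0.2 set 0 of 4 arrays had it well above background, in the 0.6 set 4 of 4. Its signal was -4.95 and -5.81 on the NC arrays and -6.95 and -7.47 after miR-193b, none of them well above background, so no fold is given. The groups did not overlap, and the fit over probes called it lower after miR-193b, on those dim signals. In the 0.6 set it was -4.69 and -4.39 on the NC arrays and -4.98 on both miR-365a arrays, a difference of -0.44 ± 0.31 against -0.68 at the main probe. When the probes of a gene were averaged, Tyro3 was called lower after miR-193b as well, at -0.94, a value that rests on the dim probe.

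Mertk, the TAM receptor of macrophages and retinal pigment cells, was not well above background on any of the 8 arrays and was not tested. Its signal was -7.67 and -7.89 on the NC arrays of the 0.2 set and -7.41 and -7.97 after miR-193b. In the 0.6 set it was -8.65 and -8.42 on the NC arrays and -8.66 and -8.88 after miR-365a. No difference is read from these values. The single probe matched the genome at chr2:128627867-128627924.

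Met, the HGF receptor, was at -0.49 and -0.44 on the NC arrays of the 0.2 set and at -0.27 and -0.63 after miR-193b, which lie on either side of the NC values. In the 0.6 set it was at -1.21 and -0.62 on the NC arrays and at -1.21 and -1.18 after miR-365a. The groups overlapped in both sets. The differences were 0.01 ± 0.22 and -0.28 ± 0.22, and neither was called. In the 0.6 set the value turned on 1 array: without NC replicate 1 it was -0.57, and without NC replicate 2 it was 0.01. Met is measured by 1 probe, printed on 10 spots and shown here because every Met value rests on it, at chr6:17503299-17503358.
Met probe: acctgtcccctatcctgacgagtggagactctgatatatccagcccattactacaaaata

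Mst1r, which encodes the MSP receptor RON, was at 0.85 and 0.66 on the NC arrays of the 0.2 set and at 0.95 and 0.84 after miR-193b. It was at 0.92 and 1.12 on the NC arrays of the 0.6 set and at 0.52 and 0.26 after miR-365a. The groups overlapped in the 0.2 set, and both miR-365a arrays lay below both NC arrays. Mst1r fell by 0.63 ± 0.15 after miR-365a, 1.55-fold, and differed by 0.15 ± 0.15 after miR-193b. The difference of the effects, -0.77 ± 0.21, was not called. The fall kept its call in 2 of the 8 fits that leave out 1 array, those without an NC array of the 0.2 set, with values from -0.76 to -0.50. It was also not called in a fit of the 0.6 set alone or with the slide as a fixed block, at an unchanged -0.63, and was called with the slide as a random block. The probe, also on 10 spots, lies at chr9:107822566-107822625.

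Igf1r, the receptor of the insulin-like growth factors, was lower in both sets. Its signal was 1.46 and 1.24 on the NC arrays and 0.93 and 0.50 after miR-193b, and 1.03 and 1.34 on the NC arrays and 0.21 and 0.31 after miR-365a. The groups did not overlap in either set. Igf1r fell by 0.92 ± 0.19 after miR-365a, 1.90-fold. The difference after miR-193b was -0.64 ± 0.19 and was not called, with -0.53 on slide 1 and -0.74 across slides 2 and 3. The effects differed by -0.29 ± 0.27, also not called. The fall after miR-365a ranged from -1.08 to -0.77 with 1 array left out and lost its call without any 1 of the 4 arrays of the 0.6 set. Its probe lies at chr7:75378461-75378520, from base 11885 of a long transcript.

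**Figure D2:**
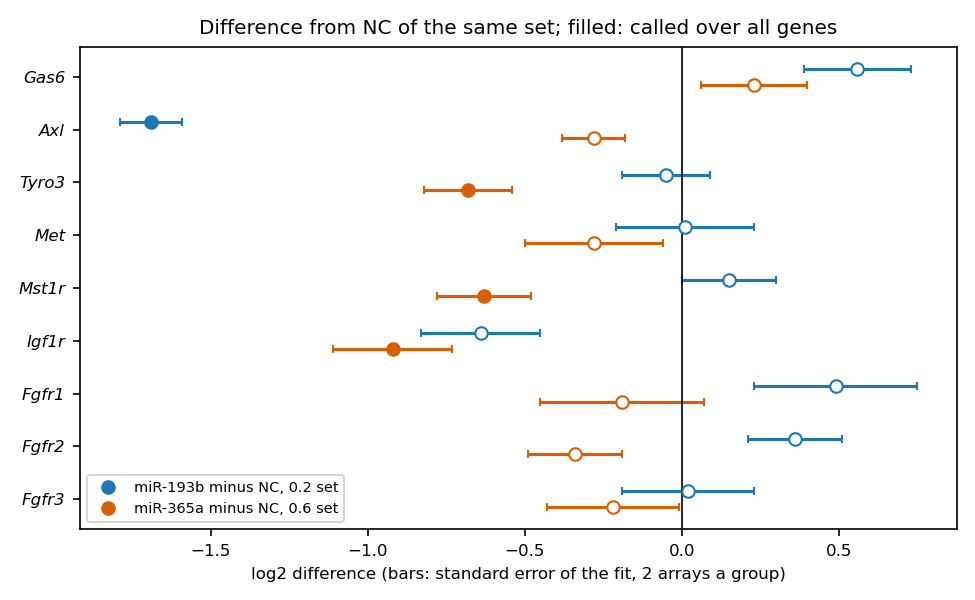
Difference of each tested gene from the NC arrays of the same set (x axis, log2 units), in blue after miR-193b and in orange after miR-365a. Bars are the standard error of the fit with 2 arrays per group and filled points are called. Axl after miR-193b, at -1.69, stands apart from all others, which lie between -0.92 and 0.56, and only Gas6 is above 0 after miR-365a.

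None of the 3 FGF receptors was called after either microRNA. Fgfr1, the form typical of mesenchymal cells, was at -3.37 and -2.66 on the NC arrays of the 0.2 set and at -2.57 and -2.48 after miR-193b. It was at -2.23 and -1.90 on the NC arrays of the 0.6 set and at -2.42 and -2.09 after miR-365a. The miR-193b arrays lay above their NC arrays without overlap, and the groups of the 0.6 set overlapped. The differences were 0.49 ± 0.26 and -0.19 ± 0.26, and the former was 0.79 on slide 1 and 0.18 across slides 2 and 3. Its size rests on NC replicate 1 of the 0.2 set, without which it was 0.14.

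Fgfr2, whose epithelial form receives FGF7 and FGF10 from the stroma, was at -2.61 and -2.31 on the NC arrays of the 0.2 set and at -2.22 and -1.98 after miR-193b. It was at -1.99 and -1.94 on the NC arrays of the 0.6 set and at -2.30 and -2.31 after miR-365a. The groups overlapped in neither set, with the miR-193b arrays higher and the miR-365a arrays lower than their NC arrays. The differences were 0.36 ± 0.15 and -0.34 ± 0.15, and the difference between them, -0.70 ± 0.21, was not called.

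Fgfr3, often mutated in benign skin keratoses, was at -3.03 and -2.48 on the NC arrays of the 0.2 set and at -2.90 and -2.57 after miR-193b. It was at -2.34 and -2.40 on the NC arrays of the 0.6 set and at -2.53 and -2.65 after miR-365a. The groups overlapped in the 0.2 set, and the miR-365a arrays lay just below their NC arrays. The differences were 0.02 ± 0.21 and -0.22 ± 0.21.

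Each FGF receptor has several probes. The main ones lie at chr8:26685820-26685879 for Fgfr1, chr7:137307532-137307473 for Fgfr2 and chr5:34079649-34079708 for Fgfr3. The 2 other Fgfr1 probes start at bases 3893 and 2975 of the transcript, against 4641 for the main one, and were well above background on 2 arrays and 1 array, all of the 0.6 set. The Fgfr2 probes share 42 of their 60 bases, and the other one was at 0.16 ± 0.20 after miR-193b and -0.61 ± 0.20 after miR-365a, with the signs of the main probe and no call. Of the other Fgfr3 probes, that from base 2848 of another transcript model was well above background on 0 arrays. The last one, from base 2558, matches the genome over 235 bases, chr5:34077856-34078090, so its 60 bases cross an intron, and it is shown because it measures spliced Fgfr3 RNA.
Fgfr3 intron-spanning probe: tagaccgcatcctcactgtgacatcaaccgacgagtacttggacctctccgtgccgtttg
On the 4 arrays of the 0.6 set it was well above background, and on 0 of the 0.2 set. In the 0.6 set it was at -5.52 and -5.05 on the NC arrays and at -5.84 and -5.62 after miR-365a, without overlap, a difference of -0.45 ± 0.29. In Tyro3, Fgfr1 and Fgfr3 the probe well above background on all 8 arrays was the one with the largest transcript start.

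**Figure D3:**
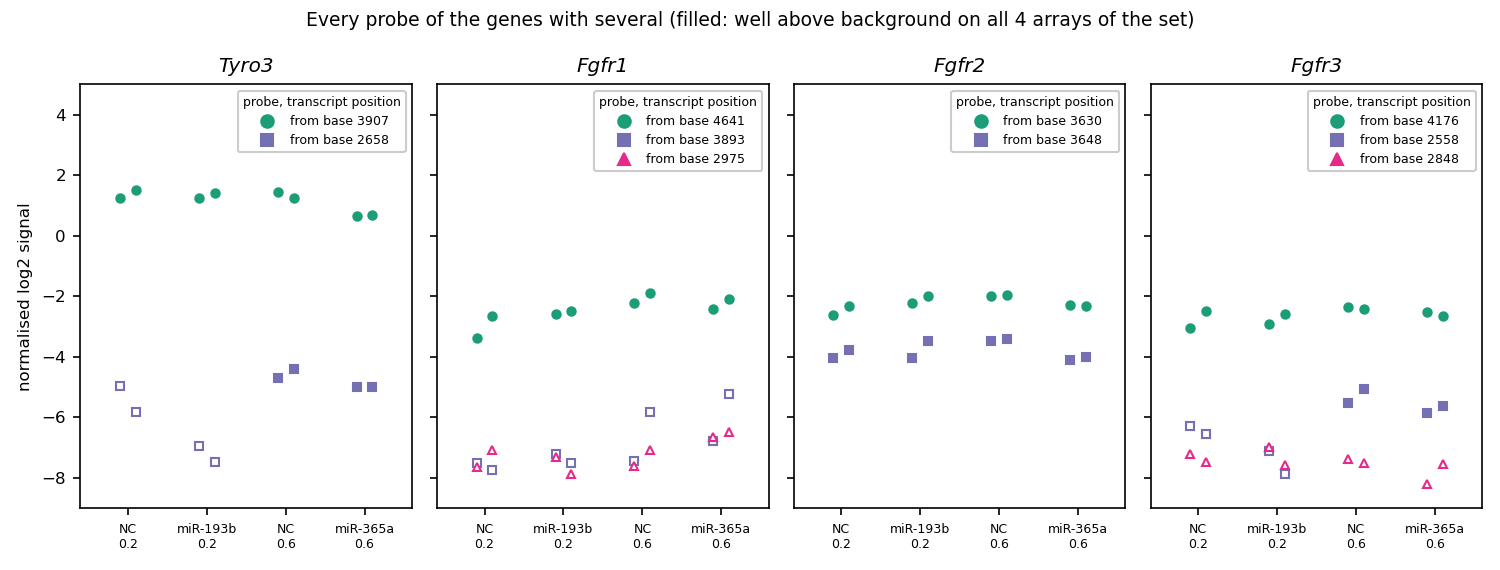
Normalised log2 signal of every probe of the 4 genes with more than 1 probe on the 8 arrays (y axis, log2 units). Colours and shapes are probes, given by the transcript base at which they start, and filled points belong to sets whose 4 arrays all had the probe well above background. Heights of different probes are not comparable. The upstream Tyro3 probe and the Fgfr3 probe from base 2558 are filled only in the 0.6 set.

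Treated and NC arrays were fully separated for 5 of the 9 tested genes after miR-193b, beside 52.5% of all genes, and for 7 of 9 after miR-365a, beside 61.6%, so with 2 arrays per group such a separation is common. The difference was below 0 for 8 of the 9 after miR-365a, beside 47% of all genes, and for 3 of 9 after miR-193b, beside 44.4%, and nothing is read from these counts of chosen genes. The 8 include Fgfr1, which was at 0.40 with the mean over its probes. Of the differences between the effects of the microRNAs, 8 of 9 were below 0, beside 51.9% of all genes, and Axl was the exception and the sole call. The others lay between -0.77 (Mst1r) and -0.24 (Fgfr3).

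Between the NC arrays of the sets, Gas6 was the 1 call among the 9, and 7 of 9 had fully separated arrays, beside 61.8% of all genes. Fgfr1 was higher in the 0.6 set by 0.95 ± 0.26, which did not pass (limma, Benjamini-Hochberg adjusted p = 0.0557). The same test gave 0.49 ± 0.15 for Fgfr2 (limma adjusted p = 0.0707) and -0.31 ± 0.10 for Axl (limma adjusted p = 0.0916), so neither passed. The Axl difference after miR-365a, -0.28, was taken from the same NC arrays of the 0.6 set. The other 5 lay between -0.45 (Met) and 0.39 (Fgfr3), with limma adjusted p-values of 0.193 to 0.832. The median of the 9 was 0.27, against 0.12 over all genes.

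The genes whose signal followed that of Axl most closely were found over the 8 arrays, after subtracting the NC mean of each set, among 12043 named genes that were well above background on every array. By Pearson's r the nearest included Fbxw2 (0.994), Ap2m1 (0.993), 1110059E24Rik (0.992) and Stmn1 (0.990). The differences of these 4 after miR-193b ranged from -1.51 ± 0.11 for Stmn1 to -0.43 ± 0.10 for Fbxw2, and after miR-365a from -0.13 ± 0.11 to -0.05 ± 0.10. For Met they were Ppp3cc (0.945), Lpp (0.935), Lama3 (0.930), Pde6h (0.920) and Serpini1 (0.918). Among the other tested receptors and Gas6, the r to Axl ran from -0.846 for Gas6 to 0.460 for Igf1r. These correlations describe 8 arrays of 4 groups and are dominated by the group means.

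Other genes of the same pathways were taken from 6 lists of 114 genes in all, of which 86 were tested. After miR-193b, 2 were called higher and 1 lower (3.49% of the 86, beside 2.9% of all genes). After miR-365a, 9 were called higher and 9 lower (20.9%, beside 15.9% of all genes). The median difference of the 86 was 0.08 and 0.03, against 0.05 and 0.02 over all genes. An unadjusted p under 0.05 was found for 24 of the 86 after miR-193b (27.9%, beside 21.4% of all genes) and for 31 after miR-365a (36%, beside 31.3%). All other p-values here are from limma, adjusted over all genes tested.

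Among 14 further ligands, 8 were tested and 1 was called after either microRNA (12.5%, beside 2.9% and 15.9% of all genes). This was Mst1, which encodes MSP, the ligand of the RON receptor. Mst1 was at -1.06 and -1.28 on the NC arrays of the 0.2 set and at -0.27 and -0.24 after miR-193b, and at -0.39 and -0.08 on the NC arrays of the 0.6 set and at 0.59 and 0.44 after miR-365a. The microRNA arrays were higher without overlap in both sets. Mst1 rose by 0.92 ± 0.15 after miR-193b (limma adjusted p = 0.0396) and by 0.75 ± 0.15 after miR-365a (limma adjusted p = 0.0246), and another probe of the gene gave 0.85 and 0.73. Its receptor gene Mst1r differed by 0.15 and -0.63 in the same comparisons. Hgf, which encodes the ligand of Met, was not among the tested ligands. In no group was its main probe well above background on both arrays. The ligand genes Igf1 (-0.16 and -0.08) and Pros1 (0.31 and -0.27), the latter a second TAM ligand, were not called. The other Igf1 probes, all dimmer, ran from 0.03 to 0.15 after miR-193b. After miR-365a they gave 0.18, -2.05, 1.06 and -1.65.

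The 7 genes of ligand activation and shedding were all tested. HGF and MSP are secreted as inactive precursors that serine proteases cleave. Spint1, an inhibitor of those proteases at the cell surface, was at -1.75 and -2.01 on the NC arrays of the 0.2 set and at -3.04 and -3.15 after miR-193b, and at -0.91 and -0.58 on the NC arrays of the 0.6 set and at -0.20 and 0.04 after miR-365a. Its groups did not overlap in either set, lower in the 0.2 set and higher in the 0.6 set. Spint1 fell by 1.21 ± 0.17 after miR-193b (limma adjusted p = 0.0305) and rose by 0.67 ± 0.17 after miR-365a (limma adjusted p = 0.0480). The difference between these effects, 1.88 ± 0.24, was called too (limma adjusted p = 0.0194), and another Spint1 probe gave -1.22 and 0.45.

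Hpn, which encodes hepsin, a protease that activates HGF and MSP, rose by 1.01 ± 0.15 after miR-193b (limma adjusted p = 0.0346) and was at 0.20 ± 0.15 after miR-365a. Hgfac, the secreted HGF activator, fell by 1.14 ± 0.26 after miR-365a (limma adjusted p = 0.0350). Its value ran from -1.46 to -0.82 with 1 array left out, and the call held in only 1 of those 8 fits. The sheddases Adam10 and Adam17, which can release receptor ectodomains from the membrane, fell by 0.58 ± 0.12 and 0.89 ± 0.18 after miR-365a (limma adjusted p = 0.0249 and 0.0253). After miR-193b they were at 0.44 ± 0.12 and 0.40 ± 0.18, not called. Another Adam17 probe gave 0.05 after miR-193b and -0.50 after miR-365a. With 1 array left out, the differences after miR-365a ran from -0.66 to -0.51 for Adam10 and from -1.05 to -0.74 for Adam17. St14 and Spint2 were not called in either comparison. The 3 calls after miR-193b (Mst1, Hpn and Spint1) were each lost in all 8 fits that leave out 1 array, at values that stayed between 0.81 and 1.03, 0.87 and 1.15, and -1.34 and -1.08. The Spint1 call after miR-365a was likewise lost in all 8, at values of 0.50 to 0.83, and held in 7 of 11 other settings.

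Among adaptors and effectors, 19 of 23 were tested. After miR-193b 0 were called by limma, beside 2.9% of all genes. An unadjusted p under 0.05 was found for 6 (31.6% of the 19, beside 21.4% of all genes). After miR-365a 3 were called higher and 4 lower (36.8%, beside 15.9% of all genes). There 11 had an unadjusted p under 0.05 (57.9%, beside 31.3% of all genes). Frs2, the docking protein of FGF receptors, was at 0.73 and 0.75 on the NC arrays of the 0.6 set and at -0.22 and -0.31 after miR-365a. It was lower on both miR-365a arrays by far more than the arrays of a group differed.

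Frs2 fell by 1.00 ± 0.11 (limma adjusted p = 0.00544), and its call held with each array left out, while 16 of the 18 calls after miR-365a in these lists were each lost without at least 1 array. Stat3, a transcription factor that many of these receptors activate, fell by 1.04 ± 0.14 (limma adjusted p = 0.00796), with -0.91 at another probe, and lost its call only without miR-365a replicate 2 among the 8 arrays. Pik3cb, a catalytic subunit of PI3 kinase, fell by 0.68 ± 0.13 (limma adjusted p = 0.0230). The regulatory subunits Pik3r2 and Pik3r1 rose by 1.58 ± 0.21 (limma adjusted p = 0.00796) and 1.07 ± 0.24 (limma adjusted p = 0.0333). Plcg1, a phospholipase that binds activated receptors, rose by 0.48 ± 0.10 (limma adjusted p = 0.0287), while its other probes gave -0.14 and 0.62. With 1 array left out Pik3r1 ran from 0.70 to 1.43 and Plcg1 from 0.43 to 0.53. Their calls held in only 3 and 2 of those 8 fits.

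Among genes that restrain receptor signalling, 14 of 15 were tested. After miR-193b 0 were called, beside 2.9% of all genes, and 4 had an unadjusted p under 0.05 (28.6%, beside 21.4%). After miR-365a 2 were called (14.3%, beside 15.9% of all genes). Socs3, an inhibitor of STAT3 signalling, fell by 1.10 ± 0.20 (limma adjusted p = 0.0181). Il17rd, known as SEF and an inhibitor of FGF signalling, rose by 0.77 ± 0.16 (limma adjusted p = 0.0279). Of 17 related receptors, coreceptors and binding proteins 13 were tested. After miR-193b 0 were called, and 3 had an unadjusted p under 0.05 (23.1%, beside 21.4% of all genes). After miR-365a 1 was called (7.69%, beside 15.9% of all genes). Igfbp4, which binds insulin-like growth factors, was well above background on both NC arrays of the 0.6 set and on no other array, and was at least 1.41-fold lower after miR-365a. It entered the test only through the group in which it is high, so its call is no support for a change.

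Of 38 other receptor tyrosine kinases 25 were tested. After miR-193b 0 were called, beside 2.9% of all genes, and 5 had an unadjusted p under 0.05 (20%, beside 21.4%). After miR-365a 3 were called, all higher (12%, beside 15.9% of all genes in either direction and 7.84% upward). Csf1r rose by 1.90 ± 0.31 (limma adjusted p = 0.0133), with 2.72 and 0.33 at its other probes, and Alk rose by 1.25 ± 0.25 (limma adjusted p = 0.0225). Pdgfrb was well above background on both miR-365a arrays alone and was at least 2.19-fold higher there. Like Igfbp4, it entered the test only through the group in which it is high, and the counts of calls above include both. Egfr, the best known receptor of keratinocytes, was at 0.59 ± 0.32 and 0.19 ± 0.32 and was not called. Its other probes gave 0.13 and 0.26 after miR-193b and 0.83 and 0.92 after miR-365a.

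**Figure D4:**
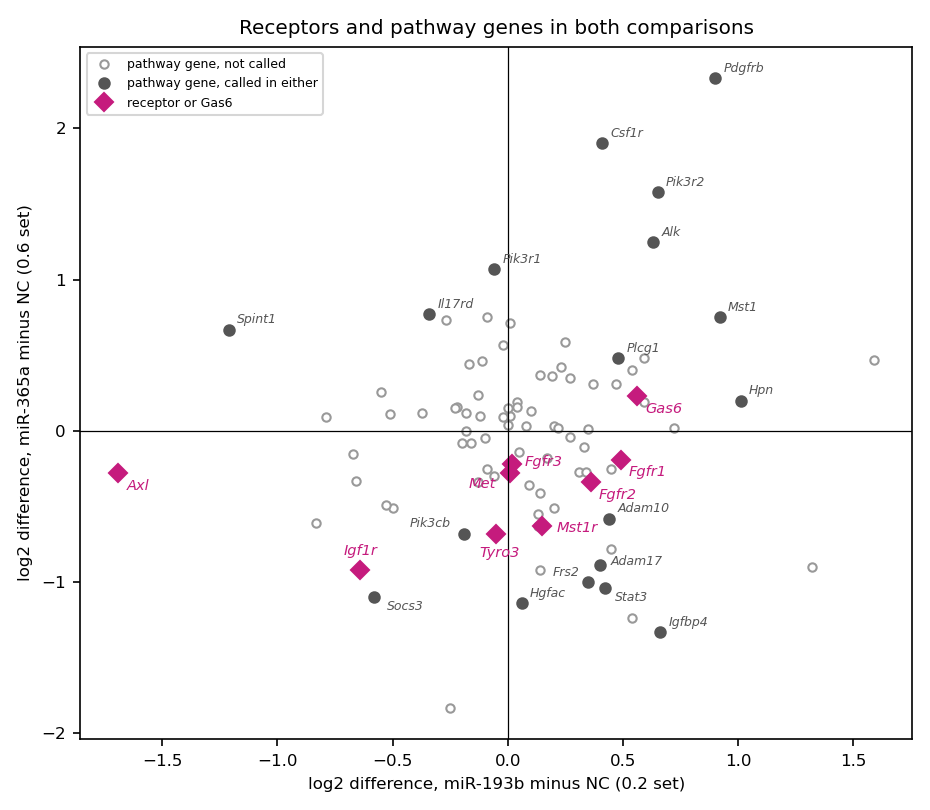
Differences from NC on the log2 scale after miR-193b (x axis, 0.2 set) and after miR-365a (y axis, 0.6 set), with 1 point per gene, for the tested genes reported here. Diamonds are the 9 tested genes among the 10, that is Gas6 and the receptors other than Mertk. Filled circles are the pathway genes called in either comparison and open circles those called in neither. Axl lies far left near 0 on the y axis, Spint1 left and above 0, and Frs2 and Stat3 right of 0 and well below it on the y axis.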

How the data were processed

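Per the file headers the deposited scanner files come from Agilent Feature Extraction 10.7.3.1, and the intensity used is its processed signal, from which the background of that array is already subtracted. The authors' own log2 values, with medians of 7.04 to 7.05, served as an alternative, and each of their columns correlated best with its own array (r = 0.965 to 0.981). The submitters' processing notes name limma. How the background was corrected and the arrays were centred for those log2 values is not given in the sources used here.

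Control spots and spots with outlier flags were left out. Log2 processed signals were centred on the 75th percentile of gene spots of each array, and spots of a probe were averaged. Probe names are those of the 0.2 set's files, brought up to date through RefSeq accessions (27508 probes), symbols (3544) or synonyms (404). The other 7973 kept the files' name. In the files of the 0.6 set 3011 gene spots carry another gene name, 0 of them a probe of the genes described. A gene was tested where 1 or more of the 4 groups had its brightest probe well above background on each of its 2 arrays.

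Limma 3.58.1 in R 4.3.3 (lmFit and eBayes) was fitted with terms for the set and each microRNA, leaving 4 residual degrees of freedom to which the prior added 2.3. The comparisons with NC share no array. For a gene well above background in 1 group only, the bound sets that group's mean against the mean of, per array of the other group, the lowest signal well above background or the gene's own if higher. Other probes than the main one were fitted over 23274 probes. With 2 arrays per group, the number of arrays is what limits precision. The script was tested on simulated data. Tables and figures were made with pandas 2.3.3, numpy 2.4.6 and matplotlib 3.10.9 in Python 3.11.15.

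The genes, lists and tests were chosen with earlier results of these data known, and no list is independent support of a direction. Named are all 10 genes, the pathway genes called after either microRNA and the 5 genes most like Axl and Met. Some genes that this rule or a marker list selects are not reported here. Pros1, Igf1, St14, Spint2 and Egfr were named after their values were seen. Hgf, which was not tested, was also named after the results were seen. The probe sequences printed were also chosen then. Alternatives were normexp background correction with an offset of 50, quantile normalisation, centring on the median, the deposited values, other filters on dim probes, the mean over probes, each set alone, the slide as a block, a variance trend with robust fitting, and leaving out each array.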

Additional observations from a re-analysis of the deposited data

How the results depend on the processing

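No result changed direction while called. For the 9 genes, the differences after both microRNAs were known when the genes were chosen, so a call that persists is a description only. After miR-193b the count of called genes among the 9, 1 as reported, became 2 with the mean over probes and 0 in the 0.2 set alone, and was 1 without any 1 array. After miR-365a the count of 3 became 0 without a filter on dim probes and was 0 to 3 with 1 array left out. Between the NC arrays the count of 1 became 2 with quantile normalisation, with the filter for all 8 arrays and with the variance trend, 3 with the deposited values and 0 without a filter, and was 0 to 2 with 1 array left out. The count of differing effects, 1, became 0 without a filter and with the slide as a fixed block, and was 0 to 1 with 1 array left out. Called pathway genes after miR-193b, 3, became 5 with normexp, the filter for all 8 arrays or the variance trend, 6 with the deposited values, and 0 without a filter, in the 0.2 set alone or with the slide fixed, and were 0 to 1 with 1 array left out. After miR-365a the 18 became 6 without a filter and were 4 to 17 with 1 array left out.

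Over all genes, calls after miR-193b numbered 517, against 1001 with normexp, 844 with the deposited values, 891 with the filter for all 8 arrays, 1025 with the variance trend, 323 with the mean over probes, 171 with the slide fixed, 11 without a filter and 0 in the 0.2 set alone (3134 at an unadjusted p under 0.05), and 8 to 276 with 1 array left out. After miR-365a they numbered 2836, against 1055 without a filter, and 601 to 2866 with 1 array left out. Between the NC arrays they numbered 2787, against 1407 with the slide as a random block and 1010 without a filter, and 479 to 2387 with 1 array left out. The 632 differing effects became 0 (without a filter, with 3489 at an unadjusted p under 0.05) to 1123 under these alternatives and 0 (3126 at an unadjusted p under 0.05) to 564 with 1 array left out. Centring on the median turned the share of higher calls between the NC arrays from 2066 of 2787 into 1465 of 2487, and that with quantile normalisation was 1556 of 2480.

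No paired analysis was possible because the labels give no replicate numbers that pair arrays across groups. The slide, which 2 arrays of the 0.2 set share, was fitted as a block instead. The slide could not be fitted as a fixed block between the NC arrays of the sets. With 2 arrays per group, a group left with 1 array is assumed to vary like the others. Signals not well above background, those of Mertk on all arrays and of 5 of the 6 secondary probes on some or all, limit what can be said of those probes.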
